A study of Mus musculus with 20 samples.

Results

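Interferon-stimulated genes are the genes whose transcription is switched on when a cell senses interferon. A list of 38 such genes was read in mouse embryonic fibroblasts (MEF) and mouse embryonic stem cells (ESC) that carry or lack the histone H2A deubiquitinase Mysm1. The platform annotation gave a probe to 37 of the 38, among 19057 genes that have a probe annotated to that symbol alone. Ifi44 was not analysed here. Of a gene's probes, the brightest over the 20 arrays stood for it, and its levels below are log2 intensities after background correction and quantile normalization within a cell type.

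The study set out to measure what loss of Mysm1 does to gene expression, and total RNA of each sample was hybridised to its own single-colour Illumina bead array. All samples were on the C57BL/6 background, and the mutant allele was tm1a(KOMP)Wtsi, a knockout-first allele present in every cell rather than in a chosen cell type. Homozygous (hom, Mysm1tma1/tm1a), heterozygous (het, Mysm1+/tm1a) and wild type (wt) ESC were measured in 3 samples each, described as independently passaged. Homozygous MEF were measured in 3 samples, heterozygous MEF in 4 and wild type MEF in 4, with 3 to 4 animals per group in the study's design. The labels do not say how many ESC lines stood behind the 3 samples of a genotype, so the error of the ESC values may be that of passaging alone.

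Type I interferon binds a surface receptor whose kinases, Jak1 and Tyk2, phosphorylate transcription factors that include Stat2. Stat2 joins Irf9 in the complex ISGF3, which binds the interferon-stimulated response element (ISRE) in promoters. Interferon gamma acts through a separate element, GAS, and induces Irf1 and the guanylate-binding proteins. The induced proteins sense foreign nucleic acid, block viral entry and translation, and conjugate or remove the ubiquitin-like protein Isg15. Fibroblasts can keep a low level of these transcripts without infection, through small amounts of secreted interferon, whereas pluripotent cells are known for a weak response to it.

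Promoters are shown because the response element that names the group is readable in them. RefSeq's GRCm38.p6 table held windows, from 250 bases before to 50 after the start, for 30 of the 38 genes. The ISRE core GAAANNGAAA, on either strand and with overlapping matches counted, was present in 16 of the 30 genes, or 53.3%, against 3.99% of 27025 genes in the whole table. The longer form GAAANNGAAAC was present in 13 of them, or 43.3%, against 0.94% of all genes. A GAS match, TTCNNNGAA on either strand, was present in 10, or 33.3%, against 9.55% of all genes. A match is a run of letters in this window and not a measured binding site. Below, 4 windows with the core and 1 without it are given 5′ to 3′ on the gene's own strand, with core matches in capitals. The Isg15 window holds 3 overlapping matches on the gene's strand, Ifit3 holds 2 on the opposite strand, Rsad2 and Gbp2 hold 1 each on the opposite strand, and Trim25 holds none.
Isg15 chr4:156200769-156201068, minus strand: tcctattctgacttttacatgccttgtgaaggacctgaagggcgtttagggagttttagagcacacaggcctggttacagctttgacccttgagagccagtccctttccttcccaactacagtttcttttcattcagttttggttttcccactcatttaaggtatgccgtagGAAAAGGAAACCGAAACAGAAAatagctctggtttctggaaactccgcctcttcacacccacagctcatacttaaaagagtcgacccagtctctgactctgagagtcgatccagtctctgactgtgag
Ifit3 chr19:34583279-34583578, plus strand: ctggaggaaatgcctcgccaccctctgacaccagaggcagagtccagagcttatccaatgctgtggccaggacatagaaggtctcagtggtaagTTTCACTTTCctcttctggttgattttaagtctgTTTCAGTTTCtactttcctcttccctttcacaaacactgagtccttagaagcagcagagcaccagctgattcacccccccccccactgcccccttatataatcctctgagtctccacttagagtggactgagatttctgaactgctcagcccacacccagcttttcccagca
Rsad2 chr12:26456403-26456702, minus strand: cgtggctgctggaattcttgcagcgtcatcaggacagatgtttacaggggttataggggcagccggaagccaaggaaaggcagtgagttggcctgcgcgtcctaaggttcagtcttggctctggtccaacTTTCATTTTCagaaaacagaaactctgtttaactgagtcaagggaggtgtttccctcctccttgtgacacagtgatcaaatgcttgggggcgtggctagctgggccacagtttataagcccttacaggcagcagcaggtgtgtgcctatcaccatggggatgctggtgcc
Gbp2 chr3:142620413-142620712, plus strand: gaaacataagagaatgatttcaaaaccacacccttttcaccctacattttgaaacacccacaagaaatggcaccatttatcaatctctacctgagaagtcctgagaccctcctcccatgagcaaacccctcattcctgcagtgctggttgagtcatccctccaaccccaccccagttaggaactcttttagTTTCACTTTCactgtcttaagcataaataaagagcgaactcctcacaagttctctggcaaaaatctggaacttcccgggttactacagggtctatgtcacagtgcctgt
Trim25 chr11:88999153-88999452, plus strand: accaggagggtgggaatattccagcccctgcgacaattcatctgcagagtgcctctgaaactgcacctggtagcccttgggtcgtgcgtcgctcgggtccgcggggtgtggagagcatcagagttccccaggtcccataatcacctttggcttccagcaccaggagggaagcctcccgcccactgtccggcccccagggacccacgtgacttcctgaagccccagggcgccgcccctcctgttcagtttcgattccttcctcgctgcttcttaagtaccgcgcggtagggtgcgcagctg
Over all member windows there were 25 core matches, of which 21 lay before the start and 18 within the 150 bases before it. Of the genes with a window, the core stood in 9 of 16 that MEF expressed at baseline, in 3 of 8 that they expressed intermittently and in 4 of 5 that stayed near background.

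Several libraries stood apart or went against their labels. Mysm1 itself read 5.44, 5.41 and 4.99 in hom MEF, 6.4, 6.43, 6.75 and 6.49 in het MEF and 7.43, 7.54, 7.0 and 7.44 in wt MEF, so the 3 MEF genotypes did not overlap. In ESC, Mysm1 read 6.47, 5.42 and 4.81 in the libraries labelled hom, 4.45, 6.69 and 6.67 in those labelled het, and 7.69, 7.48 and 7.65 in wt. The library labelled het 1 was thus below every library labelled hom and not detected, while the library labelled hom 1 stood at the level of the libraries labelled het 2 and het 3. These 2 libraries were also the most alike pair of ESC arrays (r = 0.993 across probes), and the main values that involve hom or het ESC are also given without them below. The mutants' order in ESC therefore rests on labels that 2 of 6 mutant libraries do not bear out.

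MEF arrays fell into 2 sets along the first principal component of all tested probes, which held 67.9% of the variance. The smaller set held hom 3, het 3, het 4, wt 2 and wt 3, and the larger set held hom 1, hom 2, het 1, het 2, wt 1 and wt 4. These sets come from the data and are not the study's groups. Of 9 epithelial markers, 6 to 8 were detected on the arrays of the smaller set and 2 to 4 on those of the larger set. Epcam was detected on no MEF array, but on no ESC array either. Summed macrophage marker intensity was 4949, 5045 and 2965 in hom MEF, 10714, 11584, 3451 and 1990 in het MEF and 11710, 1846, 2627 and 10317 in wt MEF, and Ptprc, Itgam, Cd53 and Ctss, 4 of the 19 markers, were detected on no MEF array. Of 19 fibroblast markers, 18 were detected on every MEF array and 10 on every ESC array. All 16 stem cell markers were detected on every ESC array and 2 of them on every MEF array. Arrays lay on 5 slides, and no slide held hom and wt of the same cell type, so slide and genotype cannot be told apart in that comparison. The raw median intensity was 53.2 to 59.9 on 19 arrays and 95.7 on MEF hom 3, and 28.5% to 31.8% of probes were detected. In bulk RNA, fewer cells of a type and less RNA per cell cannot be told apart.

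In MEF, 18 of the 37 members were expressed at baseline, meaning that a probe passed a detection p of 0.01 on all 11 arrays. A further 12 were detected on some arrays only, and 7 stayed near background on every array. In ESC, 13 were expressed at baseline, 11 were intermittent and 13 were near background. The 11 members at baseline in both cell types were the transcription factors Irf1 and Irf9, the nucleic acid sensor Zbp1, the effectors Ifitm3, Bst2, Samhd1, Eif2ak2 and Adar, the ubiquitin ligase Trim25, and the GTPases Gbp2 and Irgm1. Usp18, which strips Isg15 from proteins, was the single member at baseline in MEF and near background in ESC. Parp14 and Dtx3l, an ADP-ribosyltransferase and a ubiquitin ligase of the same response, were at baseline in ESC and intermittent in MEF. Both were nonetheless detected on all 4 wt MEF arrays. With all arrays normalized together they averaged 6.75 and 6.72 in wt MEF and 6.28 and 6.36 in wt ESC. The 7 members near background in both were Ifih1, Oas1a, Oas3, Ifit1, Mx1, Parp9 and Xaf1. They include the RNA sensor MDA5 (Ifih1) and the antiviral GTPase Mx1, and no comparison is made for them.

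In hom MEF, 28 of the 29 members that passed the detection filter were below wt MEF, by a median of -0.7 on the log2 scale, against a median of 0.00813 over all 15125 probes tested. No member passed an adjusted p of 0.05 in limma (0.999 for each of the 29), and 0.00661% of all probes did, which was Mysm1 alone. At an unadjusted p under 0.05, 8 of the 29 were lower and 0 were higher, against 1.49% of all probes lower and 1.06% higher. The 8 were Rsad2, Oasl2, Adar, Isg15, Parp14, Usp18, Gbp3 and Dtx3l. In 13 of the 29 every hom array lay below every wt array, against 2.55% of all probes, and in 0 above, against 2.39%. All 16 further probes, of 12 member genes, had the sign of the gene's main probe. Irf7, Oas2, Rsad2 and Mx2 were detected on no hom array. They passed the filter only through het and wt arrays, which favours a lower reading in hom. The median with genes at their detection bound was -0.67. Without hom 3 the median was -0.461.

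**Figure D1:**
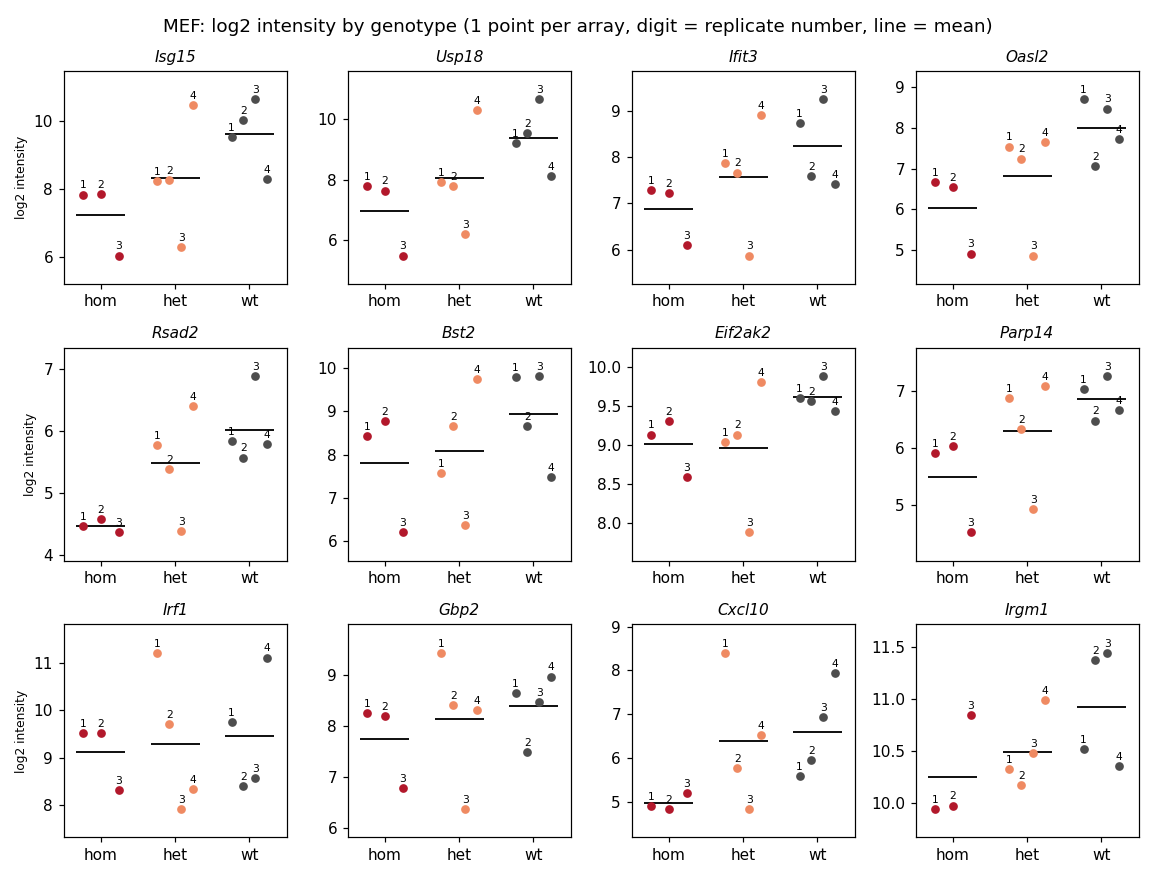
Log2 intensity (vertical axis) of 12 members on each MEF array, with hom (3 arrays), het (4) and wt (4) side by side; each point is an array and each bar the group mean. Isg15 and Usp18 spread furthest, from 6.05 and 5.5 on hom 3 to 10.64 and 10.66 on wt 3, and Rsad2 on the 3 hom arrays lay below all 4 wt arrays.

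The ISG15 system held the widest differences in MEF. Isg15, the ubiquitin-like protein that gives the group its name, read 7.84, 7.84 and 6.05 in hom MEF, 8.23, 8.27, 6.29 and 10.45 in het MEF and 9.53, 10.02, 10.64 and 8.3 in wt MEF. All 3 hom arrays lay below all 4 wt arrays, and het overlapped both, with het 4 near the highest wt array. The hom minus wt log2 difference was -2.38 ± 0.872 (standard error, as for all log2 differences here), or 5.21-fold lower, with an unadjusted limma p of 0.020. Usp18, which removes Isg15 from its targets and also restrains the interferon receptor, read 7.78, 7.64 and 5.5 in hom MEF, 7.92, 7.78, 6.2 and 10.29 in het MEF and 9.2, 9.54, 10.66 and 8.12 in wt MEF. Its arrays kept the order of Isg15 at the extremes, with hom 3 lowest and wt 3 highest. The log2 difference was -2.41 ± 0.914, or 5.31-fold lower, with an unadjusted limma p of 0.0237. Trim25, a ligase for ubiquitin and Isg15, read 8.41, 8.32 and 7.57 in hom MEF, 8.23, 8.26, 7.97 and 8.54 in het MEF and 8.58, 8.23, 8.51 and 8.42 in wt MEF. Those groups overlapped and the difference was -0.33 ± 0.215. Parp14, named here after its values were seen, read 5.92, 6.03 and 4.52 in hom MEF, 6.89, 6.33, 4.92 and 7.1 in het MEF and 7.04, 6.48, 7.27 and 6.68 in wt MEF, a hom minus wt difference of -1.38 ± 0.518. Its hom arrays lay below every wt array, as did those of Dtx3l, whose difference was -1.05 ± 0.462.

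Among the oligoadenylate synthetase family, Oasl2, which is enzymatically active in mouse, read 6.67, 6.54 and 4.9 in hom MEF, 7.54, 7.25, 4.85 and 7.65 in het MEF and 8.72, 7.06, 8.48 and 7.73 in wt MEF. The hom and wt arrays did not overlap, and het 3 was as low as hom 3. The difference was -1.96 ± 0.706, or 3.88-fold lower, with an unadjusted limma p of 0.0186. Oas2, which makes the activator of RNase L, read 4.88, 4.74 and 4.36 in hom MEF, 4.85, 5.0, 4.61 and 5.62 in het MEF and 5.67, 4.7, 5.66 and 4.93 in wt MEF, and the groups overlapped. The brightest Oasl1 probe was detected on 2 of 11 MEF arrays and was not tested, and another Oasl1 probe was detected on 3.

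Of the IFIT proteins, which bind viral RNA ends and block its translation, Ifit3 read 7.28, 7.22 and 6.11 in hom MEF, 7.88, 7.67, 5.87 and 8.9 in het MEF and 8.73, 7.6, 9.26 and 7.41 in wt MEF. No hom array reached the lowest wt array, and the difference was -1.38 ± 0.671 with an unadjusted limma p of 0.0645. Ifit2 read 6.97, 6.78 and 6.48 in hom MEF, 6.85, 6.64, 6.75 and 7.02 in het MEF and 7.19, 6.97, 7.31 and 6.96 in wt MEF. It overlapped by a small margin at hom 1, and its difference was -0.36 ± 0.170.

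Rsad2, or viperin, an antiviral enzyme that makes a chain-terminating nucleotide, had the smallest p of the group. It read 4.46, 4.58 and 4.36 in hom MEF, 5.77, 5.38, 4.38 and 6.4 in het MEF and 5.83, 5.57, 6.89 and 5.79 in wt MEF, and was detected on 0 of 3 hom, 3 of 4 het and 4 of 4 wt arrays. The hom level is thus only a bound, and the gene was at least 1.93-fold lower in hom MEF, with an unadjusted limma p of 0.00446. Adar, which edits adenosine in double-stranded RNA, read 5.56, 5.9 and 5.92 in hom MEF, 6.07, 6.03, 6.59 and 6.74 in het MEF and 6.56, 6.63, 6.85 and 5.94 in wt MEF. The highest hom array lay just under the lowest wt array, and the difference was -0.7 ± 0.253 with an unadjusted limma p of 0.0190. Eif2ak2, or PKR, which halts translation on double-stranded RNA, read 9.13, 9.3 and 8.59 in hom MEF, 9.04, 9.13, 7.88 and 9.81 in het MEF and 9.6, 9.56, 9.89 and 9.43 in wt MEF. Every hom array lay below every wt array, yet het 3 was the lowest of all, and the difference was -0.61 ± 0.367. Bst2, or tetherin, which holds budding virus at the cell surface, read 8.43, 8.78 and 6.2 in hom MEF, 7.57, 8.65, 6.37 and 9.75 in het MEF and 9.8, 8.66, 9.82 and 7.48 in wt MEF. Hom 2 stood above wt 2 and wt 4, so the groups overlapped. Ifitm3, a membrane protein that blocks viral fusion, read 13.24, 13.26 and 12.77 in hom MEF, 13.19, 12.96, 12.84 and 13.75 in het MEF and 13.36, 13.36, 13.77 and 13.21 in wt MEF. Its groups overlapped as well, with a difference of -0.33 ± 0.219. Of the other tested effectors, Cmpk2 had a difference of -0.43 ± 0.363 and Samhd1 one of -0.12 ± 0.165. Mx2 was detected on 0 of 3 hom and 3 of 4 wt arrays, and was 1.24-fold lower in hom MEF at the detection bound. The wt mean takes in an undetected array, so this fold is not a strict minimum.

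Of the 4 transcription factors, none passed the test between hom and wt MEF. Irf1, induced chiefly by interferon gamma, read 9.53, 9.51 and 8.31 in hom MEF, 11.22, 9.72, 7.91 and 8.34 in het MEF and 9.74, 8.39, 8.57 and 11.12 in wt MEF. It was highest on het 1 and wt 4, and the groups overlapped. Irf9, the DNA-binding part of ISGF3, read 8.05, 8.07 and 6.79 in hom MEF, 8.27, 8.22, 6.74 and 8.72 in het MEF and 8.74, 8.48, 8.83 and 8.02 in wt MEF, a difference of -0.88 ± 0.461. Hom 1 and hom 2 stood just above wt 4. Stat2, its partner, read 5.61, 5.32 and 4.34 in hom MEF, 5.46, 5.25, 5.06 and 5.88 in het MEF and 5.68, 5.29, 5.71 and 5.57 in wt MEF, and the groups overlapped. Irf7, which amplifies type I interferon, was detected on 0 of 3 hom, 1 of 4 het and 2 of 4 wt arrays. With hom at the detection bound it was 1.25-fold lower than wt. The wt mean takes in undetected arrays, so this fold is not a strict minimum. Of the sensors, Dhx58 (LGP2, an RNA helicase) read 5.47, 5.61 and 4.88 in hom MEF, 5.25, 5.52, 4.92 and 6.65 in het MEF and 6.29, 5.68, 6.62 and 5.6 in wt MEF. Zbp1, a sensor of Z-form nucleic acid, read 5.29, 5.53 and 5.95 in hom MEF, 5.34, 5.56, 5.28 and 5.77 in het MEF and 5.08, 5.62, 5.78 and 5.43 in wt MEF. Both overlapped between hom and wt, and Zbp1 was the only tested member with a positive difference, 0.11 ± 0.218.

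The interferon-inducible GTPases attack vacuoles that hold pathogens. Irgm1 read 9.94, 9.98 and 10.85 in hom MEF, 10.33, 10.17, 10.48 and 10.99 in het MEF and 10.52, 11.38, 11.45 and 10.36 in wt MEF. The smaller set of arrays read 10.48 to 11.45 and the larger set 9.94 to 10.52, and hom 3 stood above wt 1 and wt 4. Gbp2 read 8.26, 8.2 and 6.78 in hom MEF, 9.44, 8.4, 6.37 and 8.32 in het MEF and 8.65, 7.49, 8.47 and 8.97 in wt MEF, and Igtp read 6.84, 7.04 and 5.28 in hom MEF, 7.16, 7.26, 5.5 and 7.35 in het MEF and 7.94, 6.67, 7.65 and 7.34 in wt MEF. Both overlapped between hom and wt. Gbp3 had a hom minus wt difference of -1.3 ± 0.530 with no overlap. Of the remaining induced genes, Ifi35, a leucine zipper protein, read 7.08, 7.17 and 6.41 in hom MEF, 7.06, 6.99, 6.1 and 7.92 in het MEF and 7.58, 7.58, 7.94 and 6.95 in wt MEF. Cxcl10, the chemokine that draws activated T cells, read 4.9, 4.83 and 5.2 in hom MEF, 8.4, 5.78, 4.84 and 6.53 in het MEF and 5.6, 5.96, 6.92 and 7.93 in wt MEF. The hom arrays of Cxcl10 lay below all wt arrays, and its difference was -1.63 ± 0.756 with an unadjusted limma p of 0.0551. Among the 29 tested members, wt 3 was the highest array for 17 and hom 3 the lowest for 13, with het 3 lowest for a further 11.

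**Figure D2:**
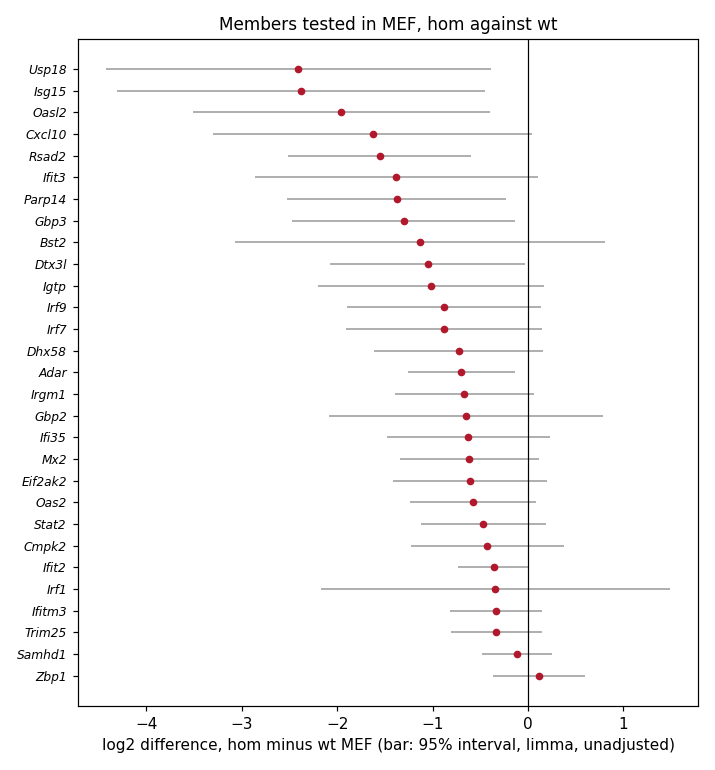
Hom minus wt log2 difference in MEF (horizontal axis) for the 29 members tested, with points for the estimate and bars for its 95% confidence interval from limma. All but Zbp1 lie left of 0, and the estimates run from -2.41 (Usp18) to 0.11 (Zbp1). Irf7, Oas2, Rsad2 and Mx2 were detected on no hom array, so their points are not exact sizes.

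Arrays of the same genotype differed widely over the members. Relative to the wt mean, the median member stood at -0.56, -0.43 and -1.17 on the hom arrays, at -0.26, -0.47, -1.41 and 0.29 on the het arrays, and at 0.12, -0.27, 0.4 and -0.27 on the wt arrays. Het 3 was thus lower than every hom array, and het 4 higher than 3 of the 4 wt arrays. Over all probes the same medians stayed between -0.03 and 0.02. Usp18 spanned 5.16 log2 units over the 11 arrays, a 35.8-fold range, and Isg15 spanned 4.59, a 24.1-fold range.

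**Figure D3:**
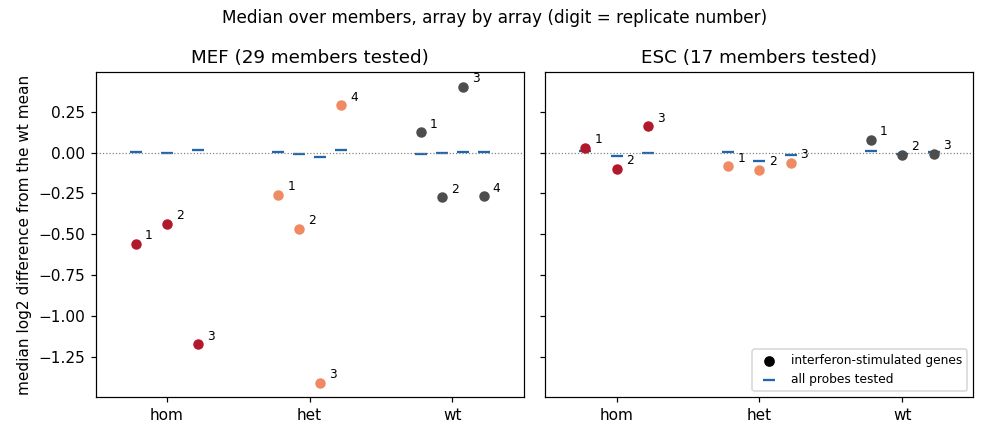
Median over the tested members of each array's log2 intensity minus the wt mean of its cell type (vertical axis, dots), beside the same median over all tested probes (blue dashes), for ESC and MEF arrays by genotype. MEF het 3 is lowest at -1.41 and MEF wt 3 highest at 0.4, while the dashes stay near 0.

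With the set of MEF arrays as a block, an alternative chosen after seeing the data, 28 of 29 members were again lower in hom than in wt MEF, by a median of -0.718, and 0 passed an adjusted p of 0.05, where 0.0132% of all probes did. The counts differed within the sets. Within the larger set (hom 1 and 2, wt 1 and 4), 26 of 27 members were lower by a median of -0.485, and 4 fell at an adjusted limma p under 0.05, beside 3.05% of all probes called and 2.57% called lower. These were Rsad2 (at least 1.67-fold lower, since neither hom array detected it, adjusted p 0.00805), Oasl2 (-1.6, adjusted p 0.00926), Irgm1 (-0.49, adjusted p 0.0204) and Parp14 (-0.86, adjusted p 0.0363). Isg15 there had a log2 difference of -1.07 (adjusted p 0.0782) and Usp18 one of -0.95 (adjusted p 0.0848). That fit has 3 residual degrees of freedom, and hom 1 and hom 2 were the most alike pair of MEF arrays (r = 0.995). Within the smaller set, hom 3 alone stood against wt 2 and wt 3, and 24 of 25 members were lower by a median of -1.33. In that fit, with 2 residual degrees of freedom and the lone hom array assumed to vary like the other groups, 0 of 13337 probes passed. Isg15 and Usp18 differed there by -4.32 and -4.66. Macrophage markers were lower too in hom than in wt MEF over all arrays, 15 of 15 tested with a median of -0.33 and none called, and 6 of 7 epithelial markers with a median of -0.57. Within the larger set, summed macrophage intensity was 4949 and 5045 in hom against 11710 and 10317 in wt. Within the smaller set it was higher in hom, at 2965 on hom 3 against 1846 on wt 2 and 2627 on wt 3. The part of these markers in the result was not tested.

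In het MEF, 28 of 29 members were below wt MEF, by a median of -0.43 against 0.000388 over all probes. Without het 3 the median was -0.141, with 23 of 29 lower, and without wt 3 it was -0.261. None passed the adjusted threshold, where 0.00661% of all probes did, and 0 members had an unadjusted p under 0.05, against 1.48% of all probes. The 3 smallest unadjusted limma p values belonged to Eif2ak2 (-0.65 ± 0.340, p of 0.0824), Ifit2 (-0.29 ± 0.157, p of 0.0924) and Oasl2 (-1.17 ± 0.654, p of 0.102), with Eif2ak2 at -0.292 and Oasl2 at -0.516 without het 3. Isg15 and Usp18 had differences of -1.31 ± 0.807 and -1.33 ± 0.846, within the spread of the het arrays. No member had every het array below every wt array, against 0.714% of all probes, or every one above, against 0.674%. Within slide 1, which held het 1 to 3 and wt 1 to 3, 27 of 29 were lower by a median of -0.781, with 0 called.

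In hom MEF, 26 of 29 members were below het MEF, by a median of -0.35 against 0.00546 over all probes, and with genes at their bound by -0.28. The 29 again include Irf7, Oas2, Rsad2 and Mx2, undetected in hom MEF, for which the filter favours a lower reading in hom. Without hom 3 the median was -0.0771, with 18 of 29 lower, without het 4 it was -0.172 and without het 3 it was -0.587. None passed the adjusted threshold, where 0.00661% of all probes did, and 2 had an unadjusted p under 0.05 in the lower direction, against 0.674% of all probes. These were Rsad2 (1.32-fold lower with hom at its detection bound, unadjusted limma p of 0.0398) and Adar (-0.56 ± 0.253, p of 0.0489). Cxcl10 followed at -1.41 ± 0.756. The het mean of Rsad2 takes in an undetected array, so its fold is not a strict minimum. Adar was the single member whose hom arrays all lay below the het arrays, against 1.38% of all probes. Within the larger set of arrays Rsad2 was at least 1.43-fold lower in hom MEF (adjusted limma p 0.0254), beside 2.04% of all probes called. Within slide 4, hom 1 and hom 2 against het 4, the median was -1.01 and 22 members were called, but so were 8933 of 15125 probes, on the spread of a single pair. Het 4 is in the smaller set of arrays and hom 1 and hom 2 are in the larger. Genotype and set therefore cannot be told apart within slide 4. The MEF comparisons share their arrays and are not independent of each other.

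In ESC, no member passed between genotypes as labelled unless samples were paired by number. In the libraries labelled hom, 11 of 17 tested members lay below wt, by a median of -0.07 against -0.00226 over all 14502 probes. None passed the adjusted threshold, at which 0% of all probes passed, and 1 had an unadjusted p under 0.05, against 12.1% of all probes. This was Irgm1, which read 11.12, 11.69 and 11.61 in ESC labelled hom, 11.29, 11.004 and 11.29 in ESC labelled het and 11.22, 10.49 and 11.25 in wt ESC, a difference of 0.48 ± 0.212 (adjusted limma p 0.406). Wt 2 was low and the groups overlapped. Without the libraries labelled het 1 and hom 1 the Irgm1 difference was 0.66 (adjusted p 0.294), 10 of 16 members were lower and 0 passed. In ESC labelled het, 9 of 17 lay below wt by a median of -0.03, none passed (0% of all probes), and 0 had an unadjusted p under 0.05, against 4.54% of all probes. Without those libraries the median was -0.00267 and 0 passed. ESC labelled hom lay below ESC labelled het in 11 of 17, by a median of -0.04, none passed (0% of all probes), 0 had an unadjusted p under 0.05, against 3.64% of all probes, and without those libraries the median was -0.03 with 0 passing.

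Same-numbered ESC samples deviated together, and with the number as a block Gbp2 passed. Gbp2 read 6.31, 6.76 and 8.12 in ESC labelled hom, 5.93, 7.11 and 9.4 in ESC labelled het and 5.29, 5.61 and 7.14 in wt ESC. Within each number the wt sample was the lowest, while across numbers the groups overlapped, and the library numbered 3 was highest under each label. The hom minus wt difference was 1.05 ± 0.248 with the block (adjusted limma p 0.0417, beside 4.14% of all probes called and 1.88% called higher) and 1.05 ± 0.816 without it (adjusted p 0.616). The het minus wt difference was 1.47 with the block (adjusted p 0.0422, beside 0.255% of all probes called and 0.193% called higher) and 1.47 without it (adjusted p 0.952). Without the libraries labelled het 1 and hom 1, the blocked differences were 1.07 (adjusted p 0.011) for hom and 1.88 (adjusted p 0.000619) for het, and Irgm1 in hom became 0.78 (adjusted p 0.0133). With slide as a block the Gbp2 difference turned to -1.27 for hom and -0.0852 for het, so its direction turned when slide was in the fit. That fit rests on the library labelled het 1, the only mutant library on the slide of the wt ESC and one that goes against its label. It therefore cannot tell a slide effect from a trait of that library. Epithelial marker intensity was highest on the libraries numbered 3, at 4984 (labelled hom), 8560 (labelled het) and 5750 (wt), against 2479 to 4574 on the others, and its part in the result was not tested.

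Other ESC members also stood out by sample number. Igtp read 5.0, 4.51 and 5.18 in ESC labelled hom, 5.13, 4.71 and 5.66 in ESC labelled het and 5.07, 4.74 and 5.14 in wt ESC. Irf1 read 9.58, 9.07 and 9.84 in ESC labelled hom, 9.44, 9.22 and 10.18 in ESC labelled het and 9.4, 9.62 and 9.69 in wt ESC. Both were highest on the library numbered 3 within each group, as Gbp2 was. Eif2ak2 read 6.66, 7.02 and 6.96 in ESC labelled hom, 6.34, 7.26 and 6.69 in ESC labelled het and 6.37, 7.02 and 6.51 in wt ESC. Ifi35 read 4.5, 4.92 and 4.85 in ESC labelled hom, 4.62, 5.36 and 4.54 in ESC labelled het and 4.39, 5.12 and 4.42 in wt ESC. Both were highest on the library numbered 2 within each group, where fibroblast marker intensity was 5954 (labelled hom), 8815 (labelled het) and 4938 (wt) against 1239 to 1917 on the others. Its part was not tested. Ifit3 read 4.87, 4.96 and 5.02 in ESC labelled hom, 5.0, 5.28 and 4.63 in ESC labelled het and 4.53, 5.04 and 4.58 in wt ESC, close to background throughout. Irf9 read 6.18, 6.11 and 5.81 in ESC labelled hom, 5.92, 6.21 and 5.72 in ESC labelled het and 6.12, 6.39 and 6.13 in wt ESC, and its het minus wt difference was -0.26 ± 0.175, or -0.246 without the libraries labelled het 1 and hom 1. Adar read 5.69, 5.07 and 6.13 in ESC labelled hom, 5.44, 5.17 and 5.66 in ESC labelled het and 5.8, 5.77 and 5.77 in wt ESC, and the libraries labelled het all lay below wt (-0.36 ± 0.244, or -0.373 without those libraries), as 5.93% of all probes did.

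Among the effectors at baseline in ESC, none passed the test between labels. Ifitm3 read 11.97, 12.27 and 12.05 in ESC labelled hom, 12.39, 12.07 and 11.87 in ESC labelled het and 12.25, 12.44 and 11.83 in wt ESC. Bst2 read 8.13, 6.91 and 7.33 in ESC labelled hom, 7.65, 7.08 and 8.25 in ESC labelled het and 8.52, 6.68 and 8.4 in wt ESC. Samhd1, which depletes deoxynucleotides, read 7.08, 6.89 and 7.25 in ESC labelled hom, 7.08, 6.53 and 6.97 in ESC labelled het and 7.25, 6.91 and 7.12 in wt ESC. Groups overlapped for all 3 genes. Trim25 read 9.15, 9.15 and 8.73 in ESC labelled hom, 9.14, 9.08 and 9.06 in ESC labelled het and 9.16, 9.22 and 8.99 in wt ESC. Dtx3l read 6.26, 5.8 and 6.1 in ESC labelled hom, 5.99, 5.79 and 6.49 in ESC labelled het and 6.34, 6.02 and 6.21 in wt ESC. Parp14 read 6.26, 5.55 and 5.51 in ESC labelled hom, 5.79, 5.7 and 5.93 in ESC labelled het and 6.29, 6.23 and 5.82 in wt ESC. None of these groups parted. Zbp1 read 5.38, 5.44 and 5.41 in ESC labelled hom, 5.97, 5.29 and 5.37 in ESC labelled het and 5.44, 4.98 and 5.44 in wt ESC. Oas2 read 5.0, 4.79 and 4.99 in ESC labelled hom, 4.75, 4.59 and 4.73 in ESC labelled het and 5.24, 4.89 and 4.66 in wt ESC. For Oas2 every library labelled hom lay above every library labelled het, as 5.47% of all probes did, but it was detected on no library labelled het and on 2 of 3 labelled hom, and without the libraries labelled het 1 and hom 1 it was not tested.

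**Figure D4:**
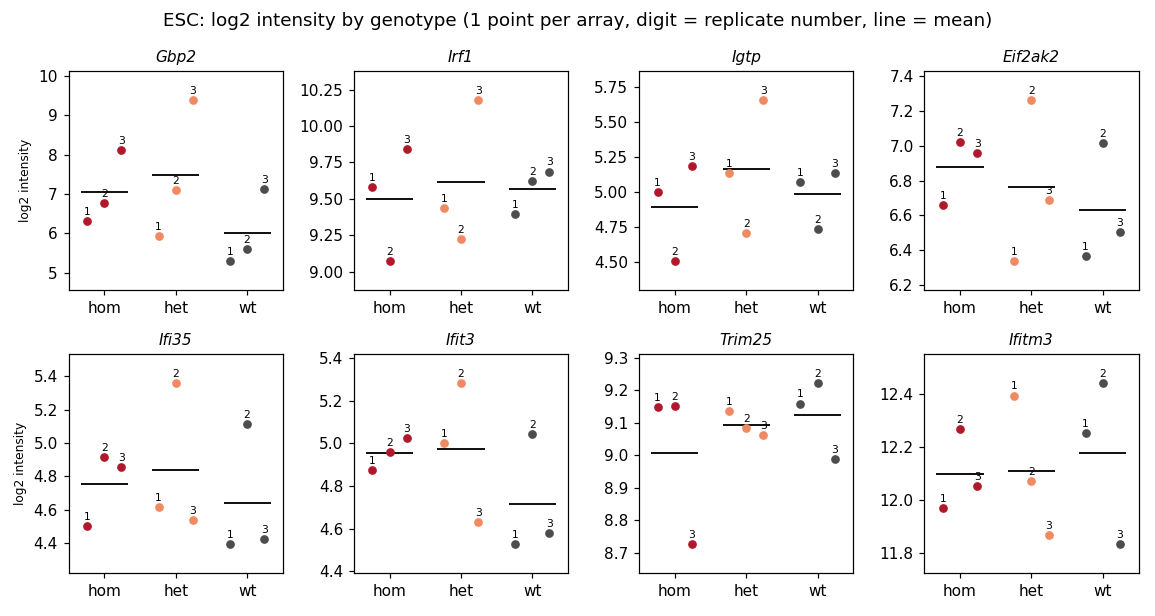
Log2 intensity (vertical axis) of 8 members on each ESC array, by label (hom, het and wt, 3 arrays each), with the sample number marked and bars for group means. Gbp2 is highest on the arrays numbered 3 (8.12, 9.4 and 7.14) and Eif2ak2 on those numbered 2 (7.02, 7.26 and 7.02).

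Most tested members lay lower in wt ESC than in wt MEF. Normalized together on all 20 arrays, 19 of 29 tested members were lower and 1 was higher in wt ESC than in wt MEF at an adjusted limma p under 0.05, where 25.8% of all probes were called lower and 30.4% higher (56.2% in all). The median difference over the members was -1.18, or -0.89 with undetected genes at their bound, against 0.0490 over all 17067 probes. Of the 29, 12 were detected on fewer than 3 ESC arrays and passed the filter only with the MEF arrays. All 12 are among those called lower, which the filter favours. Of the 17 that passed in each cell type, Ifit3, Eif2ak2, Ifi35, Igtp, Gbp2, Irf9 and Ifitm3 were called lower and Trim25 higher. Isg15 averaged 4.47 in wt ESC and 9.55 in wt MEF, at least 23.2-fold lower in ESC (adjusted p 8.61e-06). Usp18 averaged 4.39 in wt ESC and 9.31 in wt MEF, at least 19.5-fold lower (adjusted p 2.35e-05). Both were undetected in wt ESC, so the folds are lower bounds. Ifit3 averaged 4.79 in wt ESC and 8.15 in wt MEF, a difference of -3.37 ± 0.546 (adjusted p 5e-05). Eif2ak2, well detected in both, averaged 6.8 in wt ESC and 9.55 in wt MEF (-2.75 ± 0.334, adjusted p 2.12e-06). Ifi35 averaged 4.71 in wt ESC and 7.4 in wt MEF (-2.69 ± 0.360).

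Oasl2 was at least 7.29-fold lower in wt ESC, Gbp3 at least 4.09-fold, Ifit2 at least 3.89-fold, Cxcl10 at least 2.77-fold and Rsad2 at least 1.85-fold. The log2 differences of Igtp, Gbp2 and Irf9 were -2.2 ± 0.454, -2.14 ± 0.767 and -2.04 ± 0.380, and that of Ifitm3 was -1.28 ± 0.203. Dhx58 (-1.18 ± 0.322) and Stat2 (-0.6 ± 0.246) were also lower, as were Irf7, Mx2 and Cmpk2, by 1.23-fold, 1.21-fold and 1.13-fold at the detection bound. Some wt MEF arrays did not detect Irf7, Mx2 or Cmpk2, so these folds are not strict minimums. Trim25 alone was higher, averaging 9.23 in wt ESC and 8.33 in wt MEF (0.9 ± 0.186, adjusted p 0.000546). Irf1, Zbp1, Oas2, Bst2, Samhd1, Adar, Parp14, Dtx3l and Irgm1 did not pass, with differences from -0.85 (Bst2) to 0.27 (Irf1). Of 16 further probes of 12 member genes, 10 had the sign of the main probe. For Irgm1 the main probe stood at 0.12 and another at -2.82 (adjusted p 2.43e-05). For Adar the main probe stood at -0.42 and another at 0.52 (adjusted p 0.0131), and for Samhd1 the main probe stood at 0.0194 and another at -0.53 (adjusted p 0.0155). With slide as a block 4 of the 29 passed, all lower, where 12.5% of all probes were called and 5.23% called lower, and all wt ESC arrays lay on a slide without wt MEF.

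**Figure D5:**
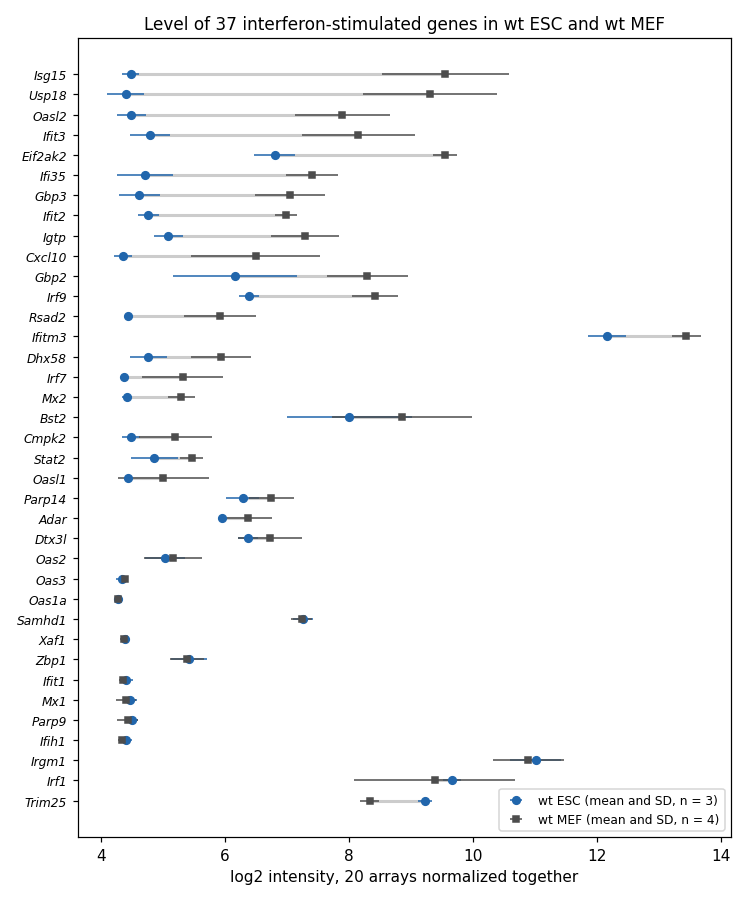
Mean log2 intensity with SD (horizontal axis) of 37 members in wt ESC (3 arrays) and wt MEF (4 arrays), normalized together and ordered by the ESC minus MEF difference. Isg15 (4.47 in ESC, 9.55 in MEF) and Usp18 (4.39 in ESC, 9.31 in MEF) are furthest apart, and Trim25 (9.23 in ESC, 8.33 in MEF) lies the other way.

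The mutants were compared in the same way, and the same 12 members passed the filter only with the MEF arrays. In ESC labelled het, 15 of 29 members were called lower and 2 higher than in het MEF, by a median of -0.73, where 25.0% of all probes were called lower and 28.8% higher (53.8% in all). In ESC labelled hom, 9 were called lower and 2 higher than in hom MEF, by a median of -0.41, where 24.9% of all probes were called lower and 29.0% higher (53.9% in all). Between hom groups Isg15 was at least 4.24-fold lower in ESC labelled hom (adjusted p 0.00588) and Usp18 at least 3.54-fold (adjusted p 0.0194). The 2 higher members were Trim25 (1.12 ± 0.199) and the main probe of Irgm1 (1.28 ± 0.319). A further Irgm1 probe read the other way, at -1.001 between hom groups (adjusted p 0.0731) and -1.56 between het groups (adjusted p 0.00528), and the mean of the Irgm1 probes did not pass in either. Without the library labelled hom 1, 6 were called lower and 2 higher, with Isg15 at least 4.29-fold lower, Trim25 at 1.05 and the main Irgm1 probe at 1.45, and Usp18 no longer passed (adjusted p 0.0565). Without MEF hom 3 the hom median was -0.841. Without the library labelled het 1, 11 were called lower and 1 higher than in het MEF. With slide as a block the hom median turned to 0.818, but no slide held both hom MEF and ESC labelled hom. That fit links their slides only through the single arrays MEF wt 4 and MEF het 4. MEF hom 3, alone on its slide, adds nothing to it.

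The difference of the differences tests whether genotype acted unequally in the cell types. It is read here over the 17 members that passed the detection filter in each cell type on its own, since the other 12 of the 29 were detected on fewer than 3 ESC arrays and their value mostly restates the MEF difference. That restriction was chosen after seeing the data. The hom minus wt difference was more positive in ESC than in MEF for 17 of 17, by a median of 0.756, where 49.7% of the 12831 probes that passed in both were positive, by a median of -0.00236. None of the 29 passed the adjusted threshold (smallest adjusted limma p 0.868), at which 0% of all probes passed. Of the 17, 1 had an unadjusted p under 0.05, against 4.67% of the probes that passed in both and 5.20% of all probes. This was Irgm1 (1.16 ± 0.437). For het minus wt, 14 of 17 were positive, by a median of 0.266, none passed (0% of all probes) and 0 had an unadjusted p under 0.05, against 2.16% of the probes that passed in both and 2.68% of all probes. Without the library labelled hom 1 the hom median was 0.637, with 17 of 17 positive and Irgm1 at 1.33. Without the library labelled het 1 the het median was 0.285, with 14 of 17 positive, 1 with an unadjusted p under 0.05 and 0 passing. Both contrasts contain the MEF differences given above.

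The rest of the pathway was read from lists drawn with these results known. Of 77 other interferon-induced genes, 67 had a probe and 38 were tested in MEF, and 35 of the 38 were lower in hom than in wt MEF, by a median of -0.55, with 0 called. The smallest unadjusted limma p values were those of the checkpoint ligand Cd274 (at least 1.4-fold lower, p of 0.00554), Oas1g (-1.88 ± 0.581, p of 0.00808), the necroptosis effector Mlkl (-1.28 ± 0.411, p of 0.0101) and the helicase Helz2 (-1.1 ± 0.389, p of 0.0170). Upstream in the pathway, as among the members, no gene passed the adjusted threshold. Interferon receptors (3 tested) had a median of -0.02, the kinases, STATs and brakes (8 tested) 0.11, and the 13 genes that induce interferon -0.03, among which the sensor Ddx58 had -0.73 ± 0.281. Of 16 interferon genes with a probe, 13 were detected on no MEF array. Ifna6 and Ifnab were detected on all 11 MEF and all 9 ESC arrays, and Ifna1 on 1 MEF array. Ifnar1 was detected on no array.

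In wt ESC, 27 of the 38 other interferon-induced genes were called lower than in wt MEF and 3 higher at an adjusted limma p under 0.05, with a median of -1.09 over the 38, where 25.8% of all probes were called lower and 30.4% higher. The joint filter admitted genes detected on no ESC array, which can hardly come out higher in ESC. Among them were Casp1, Casp4, Tap1, Gbp7 and Ifi27l2a, and, of the genes that induce interferon, Sting1, Irf5, Ikbke, Tlr4, Tlr7 and Ticam1. The secreted glycoprotein Lgals3bp differed by -5.1 ± 0.747, Ifi27 by -4.22 ± 0.820, the Isg15-activating enzyme Uba7 by -3.37 ± 0.530 and the immunoproteasome subunit Psmb8 by -2.62 ± 0.495, while Pml (1.58 ± 0.229), Mov10 (1.57 ± 0.259) and Phf11d (1.54 ± 0.390) were higher. Of 13 genes that induce interferon, 9 were called lower in wt ESC and 0 higher, at the same threshold and beside the same shares of all probes, with Irf2 at -3.1 ± 0.254, the DNA sensor Cgas at -2.03 ± 0.173 and its partner Sting1 at least 2.74-fold lower. Of 4 receptor genes tested, Ifngr1 (-1.79 ± 0.181), Ifnar2 (-1.54 ± 0.164) and Ifngr2 (-1.01 ± 0.262) were lower and Ifnlr1 was higher. The kinases split, with Jak2 lower (-2.74 ± 0.276) and Jak1 (1.26 ± 0.470) and Tyk2 (1.07 ± 0.232) higher, and the inhibitors Socs3 (1.65 ± 0.373) and Ptpn6 (2.12 ± 0.442) were also higher.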

How the data were processed

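The deposited bead intensities were not normalized, per the file headers, and came with a detection p-value, a bead count and a bead signal error per probe in the same deposited file; BeadStudio and limma are named, without versions, per the submitters' processing notes. The authors' series matrix, intensities whose scale was seen only from its values (19 of 20 columns share their sorted values), served as an alternative. Each of 20 samples was its own array, and the number of arrays limits the precision. Probes were named from the platform annotation (34885 of 45281 with 1 symbol, 18 with several, 10378 with none).

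Intensities were background-corrected and quantile-normalized with neqc (limma 3.58.1 in R 4.3.3, offset 16, 936 control beads implied by the detection p-values), within a cell type, and jointly for ESC against MEF. Levels from the separate and joint normalizations differ slightly. A probe was tested if its detection p was under 0.01 on at least 3 arrays. Differences were tested with lmFit and eBayes with trend over all groups of a cell type (8 residual degrees of freedom in MEF, 6 in ESC, 14 jointly), with Benjamini-Hochberg adjustment over all probes and a threshold of 0.05. A gene undetected on every array of a group has only a bound there, and its fold is given as at least N, from the lowest detected signal. Where some arrays of the other group did not detect the gene either, that fold is not a strict minimum. These folds carry no sampling error. The fit was tested on simulated data with known changes.

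Members and lists were chosen with earlier results of these data known. Named genes were those past the threshold, at most 12 in each direction, or otherwise the 3 with the smallest p; values on every array are given for up to 3 members of each role with the highest mean. ESC samples of the same number deviated from their group means together (r of 0.367 to 0.773 in 9 of 9 pairs, against -0.622 to 0.204 between different numbers), so the number pairs them, as the data show and the labels do not state. Same-numbered MEF samples gave r of -0.818 to 0.802, so those numbers do not pair. Alternatives covered background, offset, filter, probe choice, slide, replicate block, threshold and libraries left out. Figures were drawn with matplotlib 3.10.9.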

Additional observations from a re-analysis of the deposited data

Results flagged for a closer look

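In 3 of 60 series of 4 arrays checked, a single het MEF array stood far from the other 3, by a gap that exceeded Dixon's critical value as a share of the group's range; chance alone gives this in about 1 of 20 such series. Irf7, which amplifies type I interferon, read 6.16 on het 4, against 4.26, 4.53 and 4.54 on the other het arrays (0.853 of the range). Oasl2 read 4.85 on het 3, against 7.25, 7.54 and 7.65 (0.856 of the range). Igtp read 5.50 on het 3, against 7.16, 7.26 and 7.35 (0.899 of the range).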

How the results depend on the processing

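Of the alternatives other than leaving out a replicate, 162 counts of called members stayed within 1.5 times and 16 moved, and 161 medians stayed and 17 moved. In MEF, the hom minus wt median was -1.6 with slide as a block and -1.33 without the larger set of arrays, and 4 members were called without the smaller set. The slide fit reaches wt from hom MEF only through het 4, the single het array on a slide with hom arrays. Het 4 is in the smaller set and the hom arrays on its slide are in the larger, so genotype and set cannot be told apart there. The hom minus het median was -1.01 with slide as a block and within slide 4, where 22 members were called; 1 was called without the smaller set. In ESC, 1 member was called in hom and 1 in het with the replicate block, and 2 and 1 without the libraries labelled het 1 and hom 1, where the blocked het median was 0.0837. Leaving out a library put the ESC hom median at -0.0679 to 0.0899, the highest without hom 2. The wt ESC minus MEF median was -0.771 (offset 50), -0.659 (no background correction), -0.631 (the authors' series matrix), -0.714 (no filter), -1.48 (detected on every array of a group), -0.872 (slide block, 4 called) and -1.56 (without the larger set). For het ESC against MEF, 4 members were called with slide as a block, 9 at an adjusted p of 0.01 and 11 without the ESC numbered 2. For hom ESC against MEF, 7 were called without background correction, at 0.01 or without the ESC numbered 3, 5 with slide as a block and 4 without the larger set, and 7 (without MEF hom 1 or hom 2) to 14 (without MEF hom 3) without a replicate; its median was 0.818 (slide block), -0.823 (without MEF het 3 and hom 3), -0.798 (without the smaller set) and -0.841 (without MEF hom 3) to -0.259 without a replicate. The hom-wt difference between cell types had medians of 0.472 (series matrix) and 1.39 (slide block). Turned signs were those of Gbp2 in ESC (-1.27 in hom, -0.0852 in het, slide block, the second also within slide 2), Irgm1 in het ESC against MEF (-0.396, mean of probes), Gbp3 there (0.0242, slide block), and Isg15 (1.46), Usp18 (1.72) and Ifit3 (0.842) in hom ESC against MEF (slide block). Counts over all probes moved most with the set, slide and block. Over all alternatives in MEF they ran from 0 to 429 (hom against wt), 0 to 21 (het against wt) and 0 to 8933 (hom against het). In ESC they ran from 0 to 1073 (hom against wt), 0 to 245 (het against wt) and 0 to 260 (hom against het). Between ESC and MEF they ran from 2136 to 11080 (wt) and 4987 to 10722 (het). The replicate block in MEF, whose numbers do not pair, called 0 members (medians -0.682, -0.434 and -0.259). Slide-block values of mutant against wt ESC and of ESC against MEF also rest on single arrays that link slides. These arrays are ESC het 1, MEF wt 4 and MEF het 4. The cause of each move was not tested. Members near background cannot show a decrease, and each group held 3 or 4 arrays.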
